A study of Mus musculus with 6 samples.

Results

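The enzymes that write DNA methylation and the enzymes that take it off were followed in mouse fetal ovaries after exposure of the mothers to analgesics. The group held 9 genes of the 48709 in the count table, found by matching Ensembl identifiers to their symbols: the DNA methyltransferase genes Dnmt1, Dnmt3a and Dnmt3b with the cofactor gene Dnmt3l, the maintenance cofactor Uhrf1, the oxidases Tet1, Tet2 and Tet3, and the glycosylase Tdg. All 9 were found, and 8 passed the filter on low counts that left 20167 genes for testing, the exception being Dnmt3l. Ovaries were taken from wild-type CD1 embryos at 13.5 days post coitum (dpc). The pregnant females had received, from 10.5 to 13.5 dpc and in 4 gavages a day 3 h apart, acetaminophen (APAP, 30 mg/kg/day) with ibuprofen (IBU, 15 mg/kg/day), or ethanol alone, the diluent, in the control group. Each group had 3 libraries of polyadenylated RNA, and each library was a pool of gonads from the litters of a pair of dams, so that the values describe whole ovaries and pools, not single embryos or cell types. The sample names of the exposed libraries mention IBU only, whereas the exposure label and the protocol give APAP with IBU, and the group is called APAP+IBU here.

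DNMT1 copies methylation onto the new DNA strand after replication, and UHRF1 brings it to the hemimethylated sites. DNMT3A and DNMT3B set methylation anew, with DNMT3L as their partner in germ cells. The TET proteins oxidise 5-methylcytosine, and TDG removes the oxidised bases, which base excision repair replaces. Fetal germ cells pass through a genome-wide loss of methylation before the female germ line enters meiosis, and the promoters of germline genes such as Dazl and Sycp3, which are methylated in somatic tissues, lose it too. In ovaries of this age, germ cells and somatic cells lie side by side, and gene counts of whole ovaries cannot tell fewer cells of a type from less RNA per cell.

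The libraries held 37811968 to 48954631 counts in genes, and every tested member had at least 751 counts in every library. Germ cell and gonadal markers were present in every library, although Foxl2, a granulosa cell factor, lay at 0.944 to 8.15 counts per 1000000 counts (CPM). Libraries stood apart in other respects. The summed level of 12 liver markers ranged from 263 to 2004 CPM in the controls and from 195 to 3262 CPM in the exposed group, and replicate 3 was the highest in both groups. Alb, for example, measured 1264 CPM in replicate 3 of the exposed group and 691 CPM in that of the controls, and no other library exceeded 105 CPM. The 9 erythroid markers summed to between 6513 and 15975 CPM in the controls and between 2995 and 9589 CPM in the exposed libraries. Transcripts of 8 spermatid genes, which a fetal ovary is not known to make, summed to 36.2 to 135 CPM in the controls and to at most 5.46 CPM in the exposed libraries, with counts of all 8 genes in every library. No member is a marker on these lists. Values are given for all 6 libraries and, beside them, for replicates 1 and 2 of each group. That subset was chosen with earlier results of these data known, in which replicate 3 of each group stood apart. Its p-values and calls are therefore a description of these 4 libraries and no independent support for a difference.

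With all 6 libraries, none of the 8 tested members was called by the quasi-likelihood test of edgeR (adjusted p under 0.05), and none had an unadjusted p under 0.05. The same test called 0% of the 20167 genes, while 1254 of them had an unadjusted p under 0.05. DESeq2 called 235 of 32782 genes, none of them a member. With replicates 1 and 2 alone, 4 of the 8 tested members passed: Tet1, Tet2 and Tet3 rose and Uhrf1 fell. In that comparison 14.2% of 20633 genes were called higher and 12.9% lower. After a correction for exonic length and GC content, which left 5.66% of genes higher and 8.25% lower, Tet2 was the member still called. Levels of all 9 members by library are shown in the plot of CPM.

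**Figure D1:**
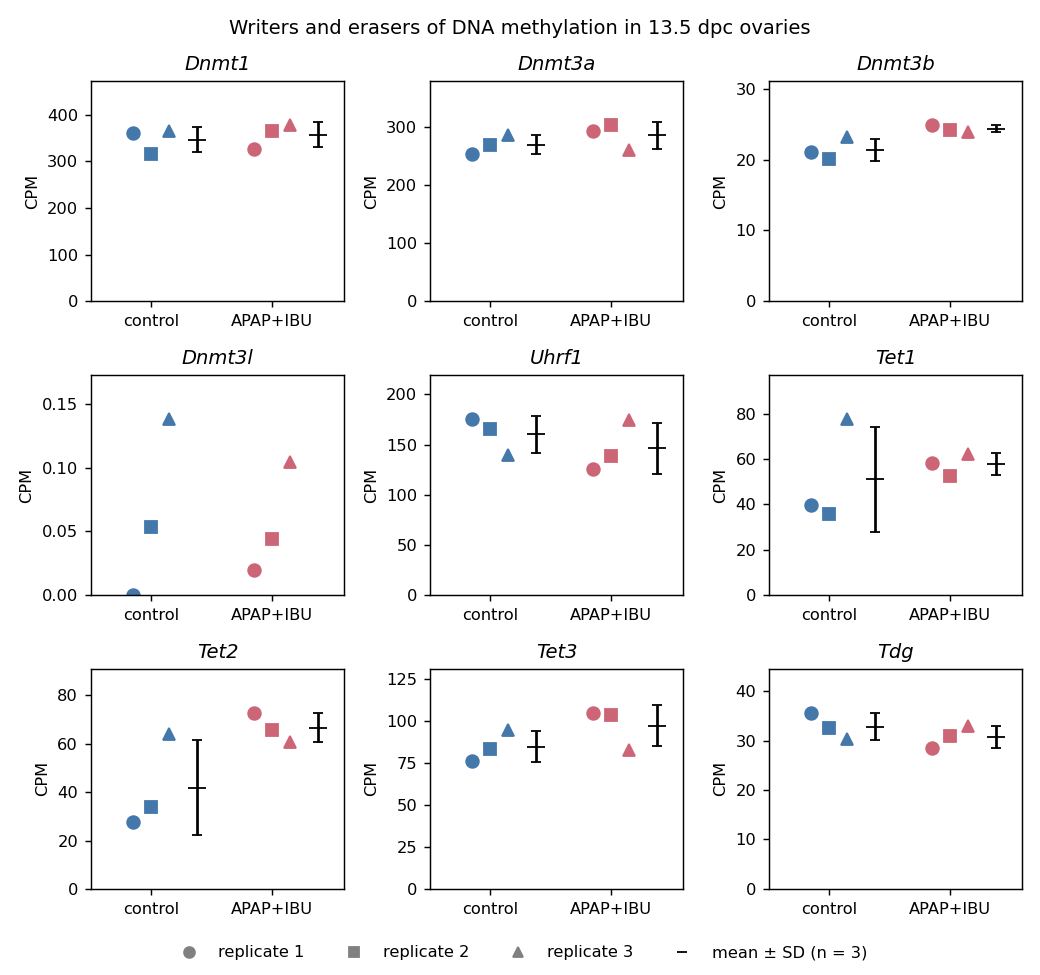
Level of each member in each library, in CPM (vertical axis from 0 and scaled for each gene), for control (blue) and APAP+IBU (red) ovaries. Symbols mark replicates 1 to 3, and black bars give the mean ± SD of 3 libraries (not drawn for Dnmt3l, which had 15 counts in all). Tet2 lay between 60.9 and 72.9 CPM in the exposed libraries, and the control libraries ran from 27.5 to 64.1 CPM.

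To compare levels between genes, CPM was divided by exonic length in kilobases. On this per-length scale the mean level over 6 libraries was highest for Dnmt1 (47.7 CPM per kb), followed by Uhrf1 (36.0), Dnmt3a (16.7), Tdg (5.91), Tet3 (5.44), Dnmt3b (4.48), Tet1 (3.52), Tet2 (3.21) and Dnmt3l (0.020). The first 4 places were clear of each other: Dnmt1 exceeded Uhrf1, Uhrf1 exceeded Dnmt3a and Dnmt3a exceeded Tdg in 6 of 6 libraries, with ranges that did not overlap. From Tdg down to Tet2 the ranges of neighbours overlapped. Tdg was above Tet3 in 3 of 6 libraries, Tet3 above Dnmt3b in 6, Dnmt3b above Tet1 in 5, and Tet1 above Tet2 in 4. The exonic lengths join all annotated exons of a gene, so the per-length level of a gene with long alternative exons is a low estimate, and gene counts do not separate its isoforms.

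Among the writers, Dnmt1 (chr9:20907209-20959888, minus strand, GRCm38) measured 359.8, 315.4 and 365.0 CPM in the controls and 326.3, 366.2 and 377.8 CPM in the exposed libraries. The groups overlapped, with the lowest value in control replicate 2. The log2 fold change was 0.04 (SE 0.13, 95% interval -0.26 to 0.34, adjusted p = 0.919), and the exact two-sided permutation test of the CPM gave p = 0.5, where 3 libraries against 3 cannot give less than 0.1. Dnmt1 made up 66.2% to 71.6% of the summed level per kb of Dnmt1, Dnmt3a and Dnmt3b in every library. Its log2 fold change in replicates 1 and 2 was 0.06 (adjusted p = 0.723).

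Dnmt3a (chr12:3806007-3914443, plus strand) encodes a de novo methyltransferase and was the higher of the de novo pair, at 15.2 to 18.2 CPM per kb against 3.94 to 4.87 for Dnmt3b. Its levels were 253.1, 270.1 and 287.0 CPM in the controls and 294.2, 303.6 and 259.9 CPM after exposure. Exposed replicate 3 lay inside the control range, and the other two exposed libraries lay above it. The log2 fold change was 0.08 (SE 0.12, adjusted p = 0.825) with 6 libraries and 0.21 (adjusted p = 0.117) in replicates 1 and 2. It took a negative sign, -0.10 with 6 libraries and -0.12 in replicates 1 and 2 (adjusted p = 0.399), once length and GC content were corrected for.

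Dnmt3b (chr2:153649450-153687730, plus strand) encodes the other de novo enzyme and was the member whose groups did not overlap. It measured 21.04, 20.09 and 23.13 CPM in the controls and 24.88, 24.22 and 23.90 CPM in the exposed ovaries. Every exposed library was above every control library, an order that 4.78% of the tested genes showed (5.92% showed the opposite one), and the exact permutation p was 0.1, the smallest possible. The means were 21.4 ± 1.55 and 24.3 ± 0.499 CPM (SD, n = 3). The log2 fold change was 0.18 (SE 0.13, 95% interval -0.13 to 0.49, adjusted p = 0.700), 0.28 in replicates 1 and 2 (adjusted p = 0.128) and 0.32 there after the length and GC correction (adjusted p = 0.0963). Its rodent-specific copy Dnmt3c, a methyltransferase of male germ cells that is 93.9% identical to a Dnmt3b transcript over 1434 bases, had 39 counts in all 6 libraries.

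Dnmt3l (chr10:78041947-78063622, plus strand), the catalytically inactive partner, was close to absent, with 0, 2 and 6 counts in the controls and 1, 2 and 4 counts in the exposed libraries. The groups overlapped, and the highest level was 0.138 CPM, in control replicate 3. The 0 in control replicate 1 allows a level of up to 0.0786 CPM (3 counts, for counting error only). The gene shares 67 bases of exon with Aire on the other strand, and whether the counting took account of strand is not given in the sources used here.

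Uhrf1 (chr17:56303321-56323486, plus strand), the reader of hemimethylated DNA, measured 175.5, 165.8 and 139.7 CPM in the controls. The exposed libraries measured 125.2, 138.6 and 174.7 CPM. The groups overlapped through exposed replicate 3, which lay just below the highest control. Control replicate 3 was the lowest control and lay above exposed replicates 1 and 2. The log2 fold change was -0.13 (SE 0.16, 95% interval -0.50 to 0.24, adjusted p = 0.784) with 6 libraries. It fell by 0.35 on the log2 scale in replicates 1 and 2 (SE 0.09, adjusted p = 0.0303), and after the length and GC correction the value was -0.24 (adjusted p = 0.117). With the replicate number as a block in these 4 libraries the adjusted p was 0.0763. Uhrf1 per kb stood at 0.845, 0.911 and 0.663 times Dnmt1 in the controls and at 0.664, 0.655 and 0.801 times in the exposed libraries (exact permutation p = 0.3). A processed copy, Gm5648, is 98.3% identical to a Uhrf1 transcript over 1590 bases and drew 613 counts in all, so some reads may have been assigned to either.

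Every exposed library of replicates 1 and 2 was above both control libraries for the 3 Tet genes and for Dnmt3a and Dnmt3b, an order that 33.3% of the 20633 genes showed, and below for Uhrf1 and Tdg, which 35.5% showed. The CG dinucleotides in the promoter windows of the Tet genes are shown because these 3 genes passed the test together there. The RefSeq windows (GRCm38.p6, 250 bases before to 50 after the start, all on the minus strand) lie at chr10:62887275-62887574 for Tet1, chr3:133544341-133544640 for Tet2 and chr6:83441629-83441928 for Tet3. The window of Dazl at chr17:50293571-50293870, also on the minus strand, is set beside them as a germline promoter that is methylated in soma. Each runs 5′ to 3′ along the gene's own strand, with every CG dinucleotide in capitals.
Tet1: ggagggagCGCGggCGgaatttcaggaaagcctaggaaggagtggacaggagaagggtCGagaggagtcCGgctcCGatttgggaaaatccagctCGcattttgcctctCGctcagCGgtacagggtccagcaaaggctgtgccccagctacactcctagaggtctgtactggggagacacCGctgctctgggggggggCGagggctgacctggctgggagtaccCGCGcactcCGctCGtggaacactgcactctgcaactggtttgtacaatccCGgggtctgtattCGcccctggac
Tet2: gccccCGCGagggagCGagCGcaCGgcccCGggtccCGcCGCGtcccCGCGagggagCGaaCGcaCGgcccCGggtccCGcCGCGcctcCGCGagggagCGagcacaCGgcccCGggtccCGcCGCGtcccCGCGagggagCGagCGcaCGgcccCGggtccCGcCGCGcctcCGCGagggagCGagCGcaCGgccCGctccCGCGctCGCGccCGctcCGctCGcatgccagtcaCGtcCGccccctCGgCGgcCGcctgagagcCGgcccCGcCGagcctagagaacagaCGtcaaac
Tet3: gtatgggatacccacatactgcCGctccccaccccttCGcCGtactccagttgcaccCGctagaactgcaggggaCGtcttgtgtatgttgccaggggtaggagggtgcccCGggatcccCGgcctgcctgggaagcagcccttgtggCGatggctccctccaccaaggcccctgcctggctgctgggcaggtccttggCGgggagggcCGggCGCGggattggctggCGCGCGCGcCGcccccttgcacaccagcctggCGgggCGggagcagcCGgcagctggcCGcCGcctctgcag
Dazl: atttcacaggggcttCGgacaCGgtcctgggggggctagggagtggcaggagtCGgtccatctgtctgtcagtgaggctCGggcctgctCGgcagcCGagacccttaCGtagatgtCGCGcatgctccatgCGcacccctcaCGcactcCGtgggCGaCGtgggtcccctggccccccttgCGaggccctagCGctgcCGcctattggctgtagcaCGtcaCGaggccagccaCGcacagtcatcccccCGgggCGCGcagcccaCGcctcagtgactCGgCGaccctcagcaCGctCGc
The Tet2 window held 57 CG dinucleotides, more than or as many as 99.8% of the 32851 promoter windows, whose median was 7. Tet3 had 22, Tet1 17 and Dazl 28. Windows of the other members held from 2 (a Dnmt1 window) to 47 (a Dnmt3a window). Each Tet window lies inside the annotated span of its gene, so annotated starts further upstream are not covered. The motif GGGCGG, searched on both strands, was found in the windows of Tet1, Tet2 and Tet3, not in that of Dazl, and in 35.7% of all windows. These are features of the sequence, and methylation itself was not measured.

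Tet1 (chr10:62804570-62908996, minus strand), an oxidase of germ cells and pluripotent cells, measured 39.8, 35.7 and 77.8 CPM in the controls and 58.4, 52.7 and 62.4 CPM in the exposed libraries. Control replicate 3 was above all exposed libraries, and the other two controls were below them all. The means were 51.1 ± 23.2 and 57.8 ± 4.89 CPM (SD, n = 3), with a log2 fold change of 0.18 (SE 0.28, 95% interval -0.47 to 0.83, adjusted p = 0.832). Tet1 rose by 0.58 on the log2 scale in replicates 1 and 2 (SE 0.11, adjusted p = 0.0125). After the length and GC correction of those libraries the value was -0.02 (adjusted p = 0.953).

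Tet2 (chr3:133463679-133545139, minus strand) had the largest log2 fold change of the 8 tested members. It measured 27.5, 34.0 and 64.1 CPM in the controls and 72.9, 65.9 and 60.9 CPM in the exposed libraries. Control replicate 3 lay within the exposed range, and the other two controls were at most 34.0 CPM. The means were 41.9 ± 19.5 and 66.5 ± 6.01 CPM (SD, n = 3), and the fold change with 6 libraries was 1.59 (95% interval 0.997 to 2.53, log2 0.67, SE 0.29, unadjusted p = 0.0511, adjusted p = 0.692, exact permutation p = 0.2). Tet2 rose 2.29-fold in replicates 1 and 2 (95% interval 1.84 to 2.84, adjusted p = 0.00623). The rise was 1.56-fold (95% interval 1.33 to 1.83, adjusted p = 0.0109) after the length and GC correction. The same correction in edgeR with 6 libraries gave 1.38-fold (95% interval 1.07 to 1.77, unadjusted p = 0.0195). Tet2 was not called in that fit (adjusted p = 0.524). Control replicate 3 decided the call. Without that library, Tet2 had a log2 fold change of 1.11 (adjusted p = 0.0372) and Tet1 one of 0.62 (adjusted p = 0.0429). No other member was called. The same fit called 1064 of 20634 genes, 597 of them higher and 467 lower.

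Tet3 (chr6:83362373-83459084, minus strand), known as the oxidase of the oocyte and zygote, had the highest level of the Tet genes per kb in every library. It measured 76.1, 83.2 and 94.4 CPM in the controls and 104.7, 103.4 and 82.8 CPM after exposure. Exposed replicate 3 lay inside the control range, and the other two exposed libraries lay above it. The log2 fold change was 0.20 (SE 0.14, 95% interval -0.13 to 0.53, adjusted p = 0.700). Tet3 rose by 0.41 in replicates 1 and 2 (SE 0.09, adjusted p = 0.0195), a call that was lost with the replicate block (adjusted p = 0.0512) and with the length and GC correction (log2 fold change 0.11, adjusted p = 0.453). The intervals of the 3 fits are shown in the plot of member fold changes.

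**Figure D2:**
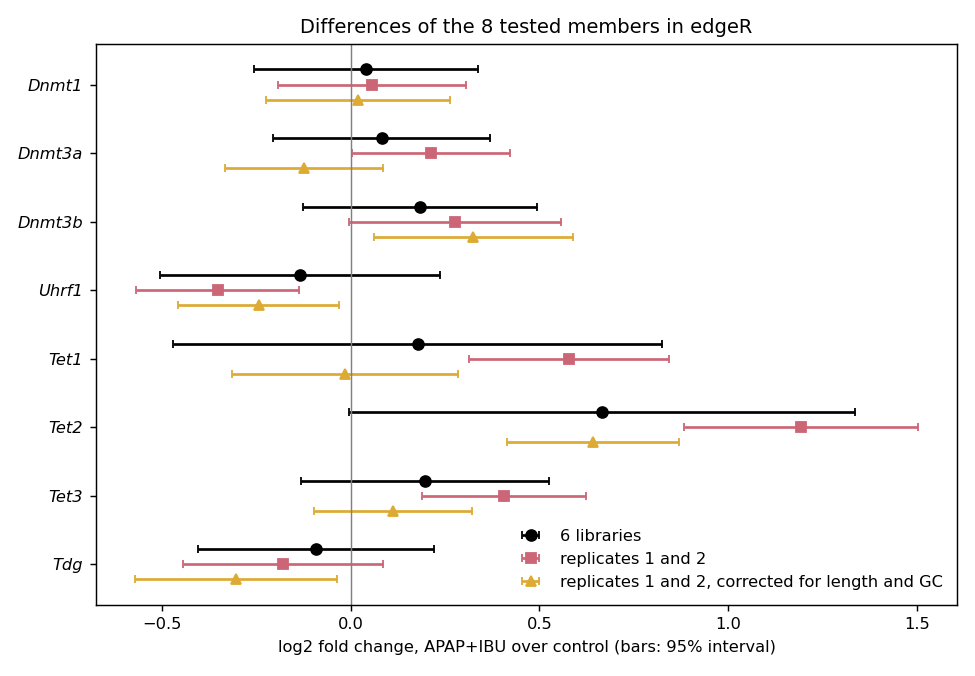
Log2 fold change of APAP+IBU over control (horizontal axis) for the 8 tested members, from edgeR. Black circles are fits to 6 libraries, red squares to replicates 1 and 2 of each group, and yellow triangles to the same 4 libraries corrected for exonic length and GC content, with bars for the 95% interval. The red intervals of Tet1, Tet2, Tet3, Uhrf1 and, narrowly, Dnmt3a (not called after adjustment) lie off 0, and all black intervals include 0.

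The calls in the Tet genes stand beside a trend with gene length over all genes. Tet1, Tet2 and Tet3 have 15457, 16870 and 16695 bases of annotated exon, and Dnmt3a has 16642. In replicates 1 and 2, 48.4% of the 1492 tested genes with at least 10000 bases of exon were called higher and 0.938% lower, with a median log2 fold change of 0.43. Of the shorter genes, 11.5% were called higher, and their median was -0.04. With 6 libraries the medians were 0.20 for the long genes and -0.02 for the shorter ones. After the correction, 10.8% of the long genes were called higher in replicates 1 and 2, with a median of -0.01. Under each of these fits Tet1 and Tet3 lay between the 25th and 75th percentiles of the bin of longest genes and Tet2 lay above the 75th, as the plot by exonic length shows. The part of transcript length or RNA quality in the library differences was not tested.

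**Figure D3:**
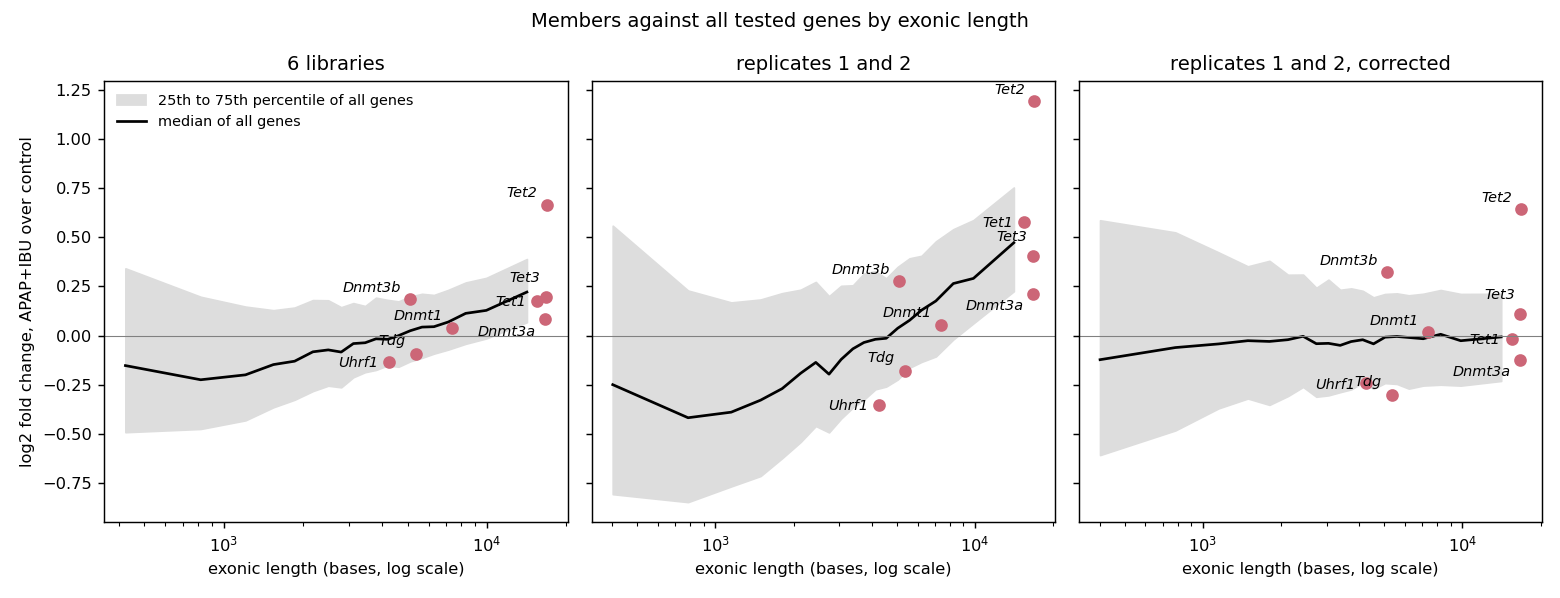
Log2 fold change of APAP+IBU over control (vertical axis) against exonic length in bases (log scale) for 6 libraries, for replicates 1 and 2, and for replicates 1 and 2 corrected for length and GC content. The black line joins the medians of 20 equal bins of all tested genes, the grey band spans their 25th to 75th percentiles, and red points are the members. Tet2 lies above the upper edge of the band at its longest genes in each panel, and Tet1 and Tet3 lie between its edges there.

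Tdg (chr10:82629828-82650799, plus strand), which excises the oxidised bases, measured 35.6, 32.5 and 30.2 CPM in the controls and 28.4, 30.9 and 32.9 CPM in the exposed ovaries. The groups overlapped. The log2 fold change was -0.09 (SE 0.14, 95% interval -0.41 to 0.22, adjusted p = 0.819) with 6 libraries and -0.18 (adjusted p = 0.271) in replicates 1 and 2. Its counts are uncertain, since the processed copies Tdg-ps and Gm9855 are 98.7% and 99.2% identical to a Tdg transcript over 2968 and 1194 bases and drew 1751 and 1794 counts in all, and 367 bases of its exons overlap Glt8d2 on the other strand.

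Summed per kb, the balance of the writers and the Tet genes was compared library by library. Dnmt1, Dnmt3a and Dnmt3b together stood at 62.9 to 72.6 CPM per kb. The Tet genes together stood at 8.77, 9.31 and 14.5 CPM per kb in the controls and at 14.4, 13.5 and 12.6 in the exposed libraries. The ratio of the sums was 7.77, 6.76 and 4.92 in the controls and 4.65, 5.38 and 5.68 after exposure. Control replicate 3 was within the exposed range and the other two controls were above it. The means of the ratio were 6.48 ± 1.44 and 5.23 ± 0.528 (SD, n = 3), with an exact permutation p of 0.3. That test cannot give less than 0.1 here, so whether the ratio differed was not resolved. Within the Tet genes, Tet2 reached 0.358, 0.405 and 0.673 times Tet3 per kb in the controls and 0.688, 0.630 and 0.728 times in the exposed ovaries (exact permutation p = 0.2).

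The tested genes most like each member across the 6 libraries were ranked by the root mean square difference of their centred log2 CPM, over 16060 genes of at least 1 CPM on average. The nearest to Tet2 were Fam120c (0.051), Zfp943 (0.053) and Zgrf1 (0.063), and the nearest to Tet1 were Fv1 (0.032), Xk (0.083) and Stil (0.088). Dnmt1 was followed by Pnpla7, Wwc2 and Memo1, Dnmt3a by Tipin, Mccc1 and Abhd3, and Dnmt3b by Fam13c, Fam120a and Gm11131. Uhrf1 was followed by Rpl4, Wars and Lsm12, Tet3 by Vcl, Ablim1 and Ano6, and Tdg by Dedd, Dnajc11 and D11Wsu47e. Among the members themselves, Dnmt3a was at rank 391 for Tet3 and Tdg at rank 457 for Uhrf1, while Tet1 was at rank 1456 for Tet2. The order is a description over 6 points that share their libraries.

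The partners and readers of the marks were counted in lists. Of all genes, 14.2% were called higher and 12.9% lower in replicates 1 and 2, and 5.66% and 8.25% there after the correction. Of 12 genes that work with DNMT1 or guard its targets, 5 had positive and 7 negative log2 fold changes with 6 libraries, none was called, and the median was -0.08 (median of all genes -0.005). Hells, a remodeller needed for methylation of heterochromatin, rose by 0.62 in replicates 1 and 2 (adjusted p = 0.0067), and Zfp445, a zinc finger protein that protects imprints, rose there by 1.64 (adjusted p = 0.00623). Dppa3, which keeps UHRF1 from chromatin and marks germ cells, fell by 0.99 (adjusted p = 0.0197), and the corepressor Trim28 fell by 0.43. Zfp445 measured 27.1, 39.9 and 93.0 CPM in the controls and 108.6, 97.5 and 77.6 CPM after exposure, so that control replicate 3 again stood among the exposed libraries. Dppa3 measured 93.4, 54.5 and 63.4 CPM in the controls and 37.2, 36.3 and 60.3 CPM after exposure, with overlap through exposed replicate 3. After the correction Zfp445 (1.27) and Dppa3 (-0.84) remained called and Hells (-0.05, adjusted p = 0.846) did not. The Uhrf1 paralogue Uhrf2 lay at 99.2 to 149.6 CPM in the controls and at 131.3 to 137.7 CPM in the exposed libraries, within the control range.

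Of 8 genes from the families that read methylated CG sites, 6 had positive and 2 negative log2 fold changes with 6 libraries. The median was 0.27, with no call. In replicates 1 and 2, 6 of the 8 were called higher, among them Mbd1, Mbd4, Zbtb33, Zbtb4 and Zbtb38. Mbd3 was called lower, and the median was 0.62. Among all genes 14.2% were called higher there and 12.9% lower. After the correction the median was 0.16 and Mbd1 (0.46), Mbd4 (0.54) and Zbtb4 (0.69) were called. Mbd1, which binds methylated promoters, measured 36.4, 38.7 and 45.5 CPM in the controls and 52.7, 57.2 and 55.9 CPM in the exposed libraries. Every exposed library was above every control, an order that 4.78% of the tested genes showed. The log2 fold change was 0.46 over 6 libraries (SE 0.13, adjusted p = 0.628). Mbd3, a subunit of the NuRD complex, measured 181.3, 141.2 and 71.6 CPM in the controls and 86.1, 97.6 and 118.4 CPM after exposure, so that its groups overlapped.

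Of 12 base excision repair genes, which complete the removal that TET and TDG begin, 5 were positive and 7 negative, with a median of -0.07 and no call with 6 libraries. Apex1, the AP endonuclease, measured 159.0, 144.0 and 129.7 CPM in the controls and 102.9, 102.0 and 128.9 CPM in the exposed libraries. Each exposed library was below each control (log2 fold change -0.37, adjusted p = 0.692), an order that 5.92% of the tested genes showed. In replicates 1 and 2 the ligase gene Lig3 was called higher (0.51) and Apex1, Ung and Nthl1 lower, which made 1 and 3 of the 12. Shares of all genes called there were 14.2% higher and 12.9% lower. After the correction Lig3 (0.34) and Ung (-0.73) were called, beside 5.66% of all genes called higher and 8.25% lower. Of the 3 tested deaminase genes Apobec1, Apobec2 and Apobec3, none was called in any of the 3 fits.

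**Figure D4:**
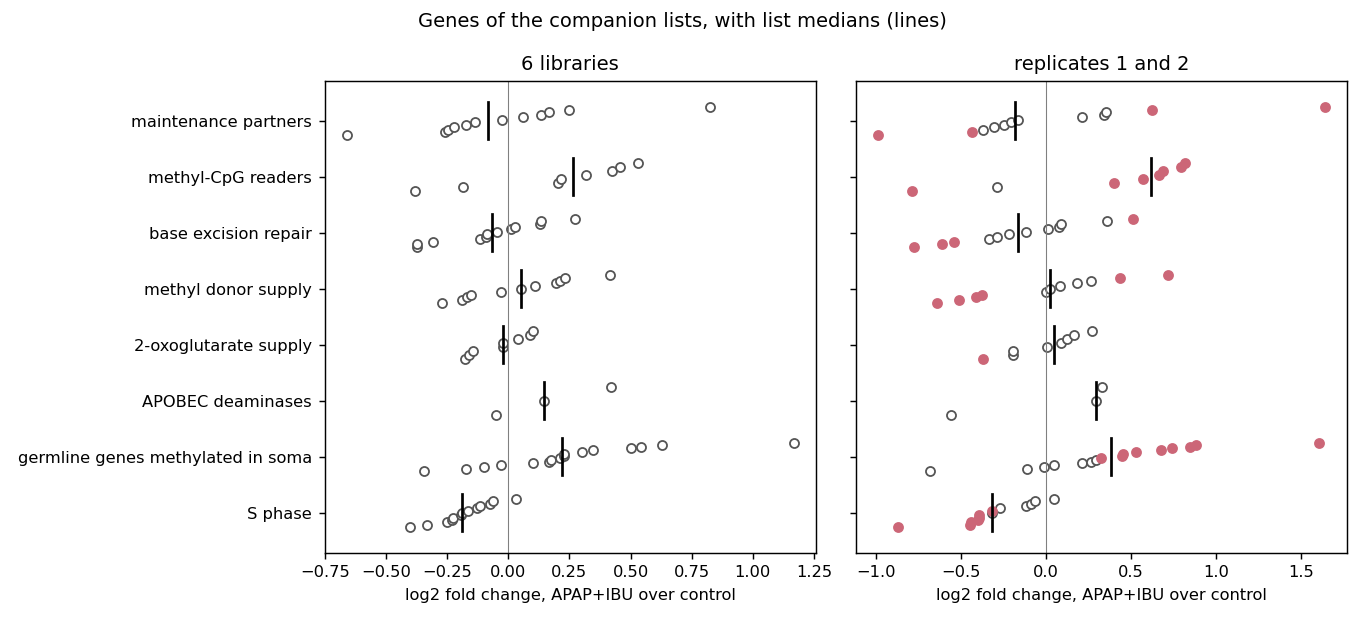
Log2 fold change of APAP+IBU over control (horizontal axis) for the tested genes of 8 companion lists (rows), with 6 libraries and with replicates 1 and 2. Each circle is a gene, filled red where the adjusted p in edgeR was under 0.05, and the black line is the median of the list. No circle is filled with 6 libraries, and 9 germline genes and 7 S phase genes are filled with replicates 1 and 2.

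Genes whose promoters are methylated in somatic tissues are the best-known targets of this machinery in the germ line. Of 16 such genes, 12 were positive and 4 negative with 6 libraries (median 0.22, no call). In replicates 1 and 2, 13 were positive and 3 negative, with a median of 0.38, and 9 of the 16 were called higher and none lower. Among all genes 14.2% were called higher there and 12.9% lower. Sycp1, a synaptonemal complex gene, measured 22.2, 34.0 and 31.2 CPM in the controls and 79.5, 88.9 and 27.5 CPM after exposure. Sycp3, its axial partner, measured 120.0, 155.6 and 117.2 CPM in the controls and 222.4, 279.5 and 105.6 CPM after exposure. In both genes exposed replicates 1 and 2 were above all controls and exposed replicate 3 was at or below the control level. Dazl, the germ cell RNA-binding gene whose promoter is printed above, measured 368.0, 379.6 and 552.7 CPM in the controls and 586.5, 591.3 and 476.0 CPM in the exposed libraries, and there control replicate 3 lay within the exposed range. After the length and GC correction Sycp1 (0.72), Taf7l (0.61) and Tex101 (0.56) were called, the median was 0.04, and Dazl had -0.05 (adjusted p = 0.812) and Sycp3 0.05 (adjusted p = 0.845). The 9 germ cell markers summed to 933 to 1235 CPM in the controls and 1126 to 1181 CPM in the exposed libraries. Of them, 2 were positive and 7 negative with 6 libraries, and 4 were positive and 5 negative in replicates 1 and 2. Dazl and Ddx4 were called higher in replicates 1 and 2, and Dppa3, Dnd1 and Pou5f1 lower. After the correction Dppa3 was the germ cell marker still called.

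Uhrf1 and Dnmt1 are transcribed with the S phase programme, and 13 other S phase genes were counted beside them. With 6 libraries 1 was positive and 12 were negative, with a median of -0.19 and no call. In replicates 1 and 2, 1 was positive and 12 were negative (median -0.32). Of the 13, 7 were called lower, among them Mcm2, Mcm6 and Mcm7 of the replicative helicase, and none higher. After the correction all 13 were negative and 5 were called lower (median -0.27). Among all genes 12.9% were called lower in replicates 1 and 2, and 8.25% after the correction. Mcm6 measured 488.2, 455.2 and 527.0 CPM in the controls and 350.8, 353.2 and 463.4 CPM in the exposed libraries, with overlap through exposed replicate 3. Averaged over the 13 genes, log2 CPM reached 7.18, 7.06 and 7.15 in the controls and 6.76, 6.81 and 7.26 after exposure. Exposed replicate 3, which had the highest value of the 6, was also the exposed library with the highest Uhrf1 and the highest level of liver markers. In the controls, replicate 3 had the highest level of liver markers and the lowest Uhrf1 (139.7 CPM). Its S phase mean of 7.15 lay below the 7.18 of control replicate 1. Whether liver RNA has a part in the values of either library was not tested.

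**Figure D5:**
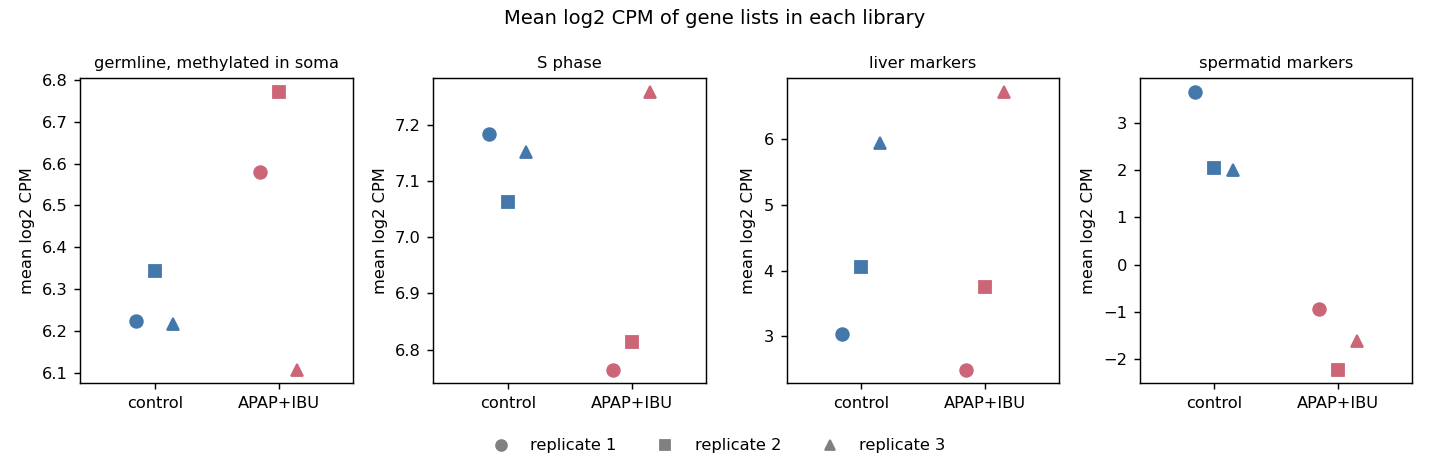
Mean log2 CPM (vertical axes, not starting at 0) of 4 gene lists in each library, for control (blue) and APAP+IBU (red), with symbols for replicates 1 to 3. Replicate 3 is the highest of its group for the liver markers, the germline and S phase lists of exposed replicate 3 lie away from those of exposed replicates 1 and 2, and the spermatid list is lower in every exposed library.

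The 9 gonadal somatic markers summed to 1174 to 1613 CPM in the controls and 1313 to 1493 CPM after exposure, 4 being positive and 5 negative with 6 libraries. In replicates 1 and 2 Lhx9 was called higher and Wnt4 and Amhr2 lower, beside 14.2% of all genes called higher and 12.9% lower. After the length and GC correction Lhx9 (-0.002), Wnt4 (-0.26) and Amhr2 (0.04) were not called. Rspo1 was called higher there (0.37, adjusted p = 0.0305). Of the liver markers 10 were positive and 2 negative with 6 libraries. Apoa1 was called lower in replicates 1 and 2, and not after the correction. Of the erythroid markers 4 were positive and 5 negative. Hba-a1, Hbb-bs and Hbb-y were called lower in replicates 1 and 2, and not after the correction. All 8 spermatid markers were lower in every exposed library than in any control, an order that 5.92% of the tested genes showed. Their median log2 fold change was -4.34 over 6 libraries, and all 8 were called lower in replicates 1 and 2, also after the correction.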

How the data were processed

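RNA-seq was done on 13.5 dpc ovaries, with 3 pools in each group. Per the labels and the methods of the study, the authors mapped stranded, polyadenylated libraries to mm10 with TopHat2 2.0.14 and Bowtie2 2.1.0 and counted genes with HTSeq 0.6.1. The deposited values are raw counts per Ensembl gene for each library. The strand setting of the counting is not given in the sources used here.

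Symbols, positions and exonic lengths came from GENCODE M21 (GRCm38). Genes passing edgeR's expression filter were tested in edgeR 4.0.16 by the quasi-likelihood test after TMM scaling (R 4.3.3), with Benjamini-Hochberg adjustment and a limit of 0.05. CPM used TMM-scaled totals, and log2 CPM a prior count of 1. Length and GC content were corrected by loess offsets (span 0.3), fitted on the 20103 tested genes with both values for the 6 libraries. DESeq2 1.42.0, other scalings and filters, a replicate block and the omission of each library were alternatives. Deviations of libraries with the same number were not correlated (r = -0.0695, -0.0151 and -0.044). This gave no sign of pairing by number and cannot exclude it. Whether libraries of the same number came from the same experiment is not given in the sources used here. No pair of replicates agreed within sampling noise. P-values measure the spread between these pools.

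Members, the 13 lists (127 distinct genes) and the named genes (all members, Dazl, Sycp3, Dppa3, Uhrf2, Dnmt3c, the 2 highest and 2 lowest log2 fold changes of each list, and the 3 genes nearest to each member, not all of which are described) were chosen with earlier results of these data known. The subset of replicates 1 and 2 was also chosen with those results known. Genes named for passing the test in replicates 1 and 2, and Foxl2, were chosen after their values were seen. Values of some genes of these lists are not reported here.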

Additional observations from a re-analysis of the deposited data

How the results depend on the processing

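Over 19 alternatives, the log2 fold change of 8 members gave 130 values of the same direction and call, 13 that became called and 9 that changed sign. Dnmt3b (0.14 to 0.32), Tet2 (0.44 to 1.20), Tet3 (0.03 to 0.41), Uhrf1 (-0.36 to -0.04) and Tdg (-0.30 to -0.03) kept their direction throughout. The sign turned for Dnmt3a and Tet1 with the length and GC correction (-0.096 and -0.036), with that correction and the block (-0.095 and -0.023), and with it in replicates 1 and 2 (-0.124 and -0.015). Leaving out a library in turn gave -0.026 to 0.093 for Dnmt1 and -0.024 to 0.616 for Tet1. The negative Dnmt1 values came without control replicate 2 (-0.023) and without exposed replicate 3 (-0.026), and that of Tet1 without control replicate 2.

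The number of members called, 0 with 6 libraries, was 4 with replicates 1 and 2, 4 there with DESeq2, 1 there with the length and GC correction, and 0 to 2 when a library was left out. Genes called numbered 235 of 32782 with DESeq2, 120 of 32782 with every gene of at least 1 count, and 5607 of 20633 with replicates 1 and 2. In the same replicates, 5748 of 31764 were called with DESeq2 and 2860 of 20567 with the correction. When a library was left out, 0 to 1064 were called, the highest (of 20634) without control replicate 3. The cause was not tested.

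With the replicate block, 2 of 20167 genes and 0 members were called, and 39 of 20103 genes and 0 members with the block and the correction. The block on replicates 1 and 2, chosen after seeing the data, called 3817 of 20633 genes and 2 members, Tet1 and Tet2. Whether the replicate numbers pair the libraries is not known.

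With 3 libraries a group, differences within the 95% intervals of the report remain compatible with the data. A missing call therefore does not show that a member was unchanged. Dnmt3l had too few counts for the filter of the main test. DESeq2, which did not use that filter, gave it a 95% interval of -3.32 to 2.85 on the log2 scale (adjusted p = 0.987).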

Other observations

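The supply of the methyl donor was followed with 11 genes of the methionine and folate cycles, of which 6 had positive and 5 negative log2 fold changes with 6 libraries (median 0.05, none called). In replicates 1 and 2, Mtr, the methionine synthase, and Mat2a, which makes S-adenosylmethionine, were called higher (0.72 and 0.44). Ahcy, Shmt1, Shmt2 and Mthfd1 were called lower, which made 2 of 11 higher and 4 lower. Shares of all genes called there were 14.2% higher and 12.9% lower. After the length and GC correction, Mtr (0.41), Shmt1 (-0.40) and Mthfd1 (-0.35) were called. That fit called 5.66% of all genes higher and 8.25% lower. Ahcy, which clears S-adenosylhomocysteine, measured 130.6, 93.6 and 64.2 CPM in the controls and 64.2, 77.4 and 97.2 CPM after exposure, and its groups overlapped.

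Of 8 genes that make, use up or compete with 2-oxoglutarate, the co-substrate of the TET enzymes, 3 were positive and 5 negative with 6 libraries (median -0.02, none called). Idh2 fell by 0.37 in replicates 1 and 2 (adjusted p = 0.0239), the 1 call among the 8, and had -0.05 after the correction. Of all genes, 14.2% were called higher in replicates 1 and 2 and 12.9% lower. Sdha, of succinate dehydrogenase, measured 399.7, 379.8 and 404.7 CPM in the controls and 335.5, 336.6 and 375.4 CPM in the exposed libraries. Each exposed library was below each control (log2 fold change -0.18, adjusted p = 0.699), an order that 5.92% of the tested genes showed.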
